A study of Macaca mulatta with 6 samples.

Results

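The miR-29 family was followed through small RNA libraries from juvenile rhesus monkey testis. Its members were taken by name, as every listed arm of miR-29a, miR-29b and miR-29c, which gave 7 of the 701 mature miRNAs in the miRNA table. The same-named precursor genes, mir-29a, mir-29b-1, mir-29b-2 and mir-29c, gave 4 of the 3083 genes in a second table of small RNA genes. All 7 arms and all 4 genes had enough counts to be tested. Each library came from the right testis of a wild-type animal. The 3 vehicle animals (7, 9 and 11) were 24, 14 and 15 months old, and the 3 gonadotropin animals (8, 10 and 12) were 22, 14 and 15 months old. Both groups were infused in pulses for 48 h, the first with vehicle and the second with follicle-stimulating hormone and luteinizing hormone, so the comparison asks what a brief gonadotropin drive did to this family before puberty. Whole testis was used, so fewer cells of a type and less RNA per cell cannot be told apart.

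A miRNA is cut from a hairpin precursor, and either strand (the 5p or the 3p arm) can be loaded into an Argonaute protein, which then pairs with messenger RNAs through the seed, bases 2 to 8 of the miRNA. In the miR-29 family the 3p arms are the usual guides and share their seed, while the 5p arms are mostly discarded. The family is best known for repressing collagens, elastin and other extracellular matrix genes downstream of TGF-beta, and for repressing the DNA methyltransferases DNMT3A and DNMT3B. In the testis, matrix proteins form the basement membrane around the seminiferous tubules and DNA methyltransferases act in germ cells.

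The 4 precursors lie in 2 pairs. In rheMac2, the build of the miRNA table, mir-29a (chr3:168264566-168264629) and mir-29b-1 (chr3:168265278-168265358) are 648 bases apart on chromosome 3. The second pair, mir-29b-2 (chr1:162574142-162574222) and mir-29c (chr1:162574726-162574813), is 503 bases apart on chromosome 1. In rheMac8, the build of the small RNA gene table, the first pair (ENSMMUG00000026917 and ENSMMUG00000027128) is on the minus strand and the second (ENSMMUG00000026847 and ENSMMUG00000026958) on the plus strand, with the same distances. Whether these positions are exonic or intronic in a host transcript was not analysed here. miR-29b-3p is a product of both pairs and is listed once, whereas the 5p arms miR-29b-1-5p and miR-29b-2-5p belong to 1 precursor each.

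Library totals were 1100190 to 1747355 counts over the miRNAs, and 2146412 to 3170784 counts over the small RNA genes. Marker sums are given as counts per 1000000 (CPM) of the library total. Of the testis-rich miRNAs used to check the tissue, 9 of 10 names were matched, with 17 of 17 arms tested and a summed level of 69965 to 84464 CPM in vehicle and 65811 to 88921 in gonadotropin libraries. Markers of meiotic germ cells (miR-34b, miR-34c, miR-449a and miR-449b) summed to 13.5 to 121 CPM over all libraries. None of the 17 or 9 arms of the testis and blood lists was at 0 in every library. Vehicle 7 stood apart from the other libraries in the 3p arms below, and their fold changes, spread and correlations are given with and without it.

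The family made up 4.03% of miRNA counts in vehicle 7 (95% Wilson interval 4.001 to 4.064%, for counting error only), 1.103% in vehicle 9 and 1.60% in vehicle 11. It made up 1.53%, 1.22% and 1.54% in gonadotropin 8, 10 and 12. The share in vehicle 7 was above that in every other library, and the gonadotropin values lay between those of the other vehicle libraries. Almost all of these reads were 3p arms, 97.7 to 99.5% of the family per library. Levels of single miRNAs below are CPM scaled by TMM, a factor that aligns libraries on the bulk of their miRNAs. The arms are of nearly the same length, so CPM was not divided by length. How evenly the library preparation recovers different miRNAs was not tested, so an order between arms is one of read counts.

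miR-29a-3p, the guide arm from chromosome 3, was the most abundant member, with the 30th highest mean level of the 433 tested miRNAs. It was at 16819.7 CPM in vehicle 7, 8161 CPM in vehicle 9 and 7166 CPM in vehicle 11. With gonadotropin it was at 7055, 6017 and 6893 CPM in animals 8, 10 and 12. All 3 gonadotropin libraries thus lay below all 3 vehicle libraries, but the gap between the nearest of them was small and rests on the TMM scaling. On library totals gonadotropin 8, at 7972 CPM, was above vehicle 9 and 11, at 7719 and 6945 CPM. The groups did not overlap in 11.3% of all tested miRNAs, and this was the 1 of 7 members for which they did not. Means were 10716 ± 5310 CPM in vehicle and 6655 ± 558 CPM in gonadotropin libraries (SD, n = 3 each), and the mean of vehicle 9 and 11 was 7664 CPM.

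miR-29b-3p, the guide arm that both genomic pairs produce, differed most between libraries. Its level was 17152 CPM in vehicle 7, 1493 CPM in vehicle 9 and 4126 CPM in vehicle 11. In gonadotropin 8, 10 and 12 it was at 4282, 1834 and 3527 CPM. The vehicle group held both the highest and the lowest library, 11.5-fold apart, and enclosed every gonadotropin value. Means were 7590 ± 8385 CPM in vehicle and 3214 ± 1254 CPM in gonadotropin libraries (SD, n = 3 each), with 2809.5 CPM as the mean of vehicle 9 and 11.

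miR-29c-3p, the guide arm from chromosome 1, showed the same order of vehicle libraries. It was at 13813 CPM in vehicle 7, 1736 CPM in vehicle 9 and 4925 CPM in vehicle 11. In gonadotropin 8, 10 and 12 its level was 1980, 3373 and 3608 CPM. Again the vehicle libraries spanned all gonadotropin libraries, with a spread of 7.96-fold between the highest and the lowest. Means were 6824 ± 6259 CPM in vehicle and 2987 ± 880 CPM in gonadotropin libraries (SD, n = 3 each), and vehicle 9 and 11 had a mean of 3330.2 CPM.

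The 5p arms of miR-29a and miR-29c were rare and even. miR-29a-5p was at 104, 120 and 108 CPM in vehicle 7, 9 and 11 and at 113, 76.7 and 116 CPM in gonadotropin 8, 10 and 12. miR-29c-5p was at 76.5, 98.7 and 97.6 CPM in the vehicle and at 90.9, 85.8 and 130 CPM in the gonadotropin libraries, in the same order. Vehicle 7, which held the highest level of every 3p arm, held the lowest level of miR-29c-5p. Both groups overlapped in each of these arms.

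The 5p arms of miR-29b were the least abundant and are the members that tell the 2 miR-29b precursors apart. miR-29b-2-5p, from chromosome 1, was at 42.2, 30.1 and 27.7 CPM in vehicle 7, 9 and 11 and at 16.1, 33.3 and 25.2 CPM in gonadotropin 8, 10 and 12. miR-29b-1-5p, from chromosome 3, was at 13.5, 22.6 and 8.46 CPM in the vehicle and at 9.65, 9.65 and 11.3 CPM in the gonadotropin libraries. These last values rest on 11 to 30 reads per library. miR-29b-2-5p was above miR-29b-1-5p in 6 of 6 libraries, and the groups overlapped in both arms.

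**Figure D1:**
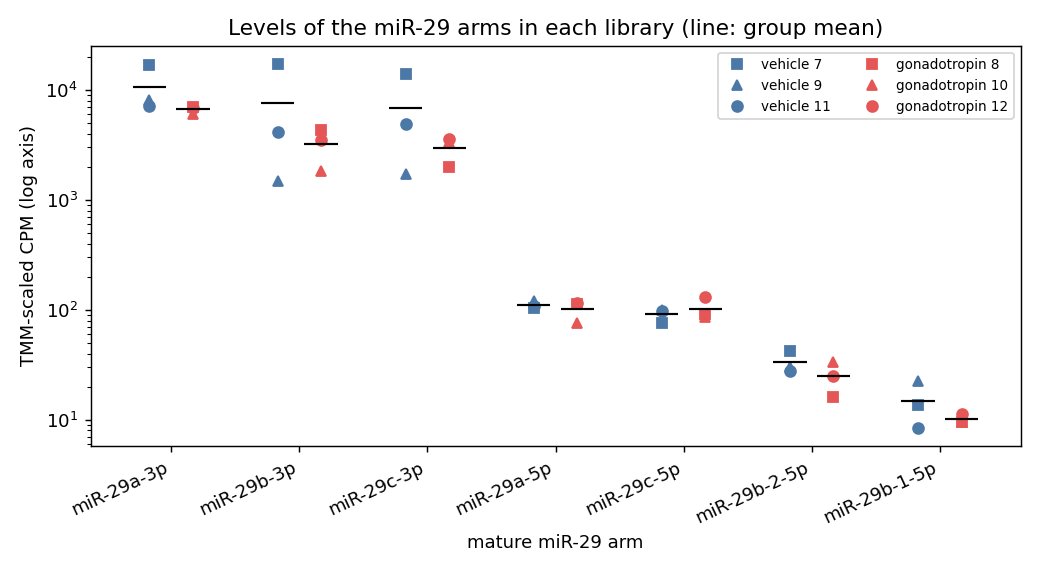
TMM-scaled CPM on a log axis for each of the 7 miR-29 arms, with a point per library (blue, vehicle; red, gonadotropin; symbols mark the animals) and a line at the group mean. The 3p arms lie 1 to 3 orders of magnitude above the 5p arms, and vehicle 7 is the highest point in all 3 of them, at 16819.7, 17152 and 13813 CPM.

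The order of levels was stable only in part. miR-29a-3p was above miR-29c-3p in 6 of 6 libraries and above miR-29b-3p in 5 of 6, the exception being vehicle 7. miR-29c-3p was above miR-29b-3p in 4 of 6 libraries, so these neighbours did not differ beyond their spread. Every 3p arm was above every 5p arm in 6 of 6 libraries. miR-29a-5p was above miR-29c-5p in 4 of 6 libraries, and both were above the miR-29b 5p arms in 6 of 6.

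No member passed the test of gonadotropin against vehicle (edgeR quasi-likelihood test on the whole table, Benjamini-Hochberg adjustment, threshold 0.05). Of the 7 arms, 0 were called and 0 had an unadjusted p under 0.05, beside 0.231% of all 433 miRNAs called and 6% with an unadjusted p under 0.05. With other tools 0 members were called too. The number with an unadjusted p under 0.05 was 1 with DESeq2 (miR-29c-3p), 0 with limma voom and 0 with the edgeR exact test. Among all 433 miRNAs, 29, 21 and 25 had such a p in these fits. The log2 fold change, with its standard error (SE), was under 0 in 6 of 7 arms, beside 54% of all tested miRNAs. The median was -0.54 over the arms and -0.06 over all miRNAs. With library totals in place of TMM, 28.9% of all miRNAs had a value under 0, and their median was 0.19. In that fit miR-29a-3p, miR-29b-3p and miR-29c-3p were at -0.40, -0.90 and -0.89. There miR-29b-1-5p and miR-29b-2-5p were at -0.30 and -0.16, while miR-29a-5p and miR-29c-5p were above 0, at 0.12 and 0.41.

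Among the guide arms, the log2 fold change of miR-29a-3p was -0.69 with an SE of 0.35 (edgeR quasi-likelihood test, adjusted p = 0.702). miR-29b-3p had a value of -1.24 (SE 0.74, adjusted p = 0.802, same edgeR test) and miR-29c-3p of -1.19 (SE 0.62, adjusted p = 0.702, same edgeR test). The larger values of miR-29b-3p and miR-29c-3p came with wider errors, since their vehicle libraries were far apart. They were also nearer 0 in other fits, at -0.65 and -0.76 with limma voom, -0.50 and -0.66 with age as a covariate and -0.62 and -0.72 with pairs by age. Among the 5p arms, miR-29b-1-5p was at -0.54 (SE 0.45), miR-29b-2-5p at -0.41 (SE 0.42), miR-29a-5p at -0.12 (SE 0.32; 0.12 with library totals, where the median of all miRNAs was 0.25 higher) and miR-29c-5p at 0.17 (SE 0.32). In the authors' deposited table, from an edgeR exact test, the log2 fold changes of the 3p arms were -0.59 for miR-29a, -1.11 for miR-29b and -1.08 for miR-29c. The smallest adjusted p-value of a member in the authors' deposited table was 0.753, for miR-29c-3p.

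**Figure D2:**
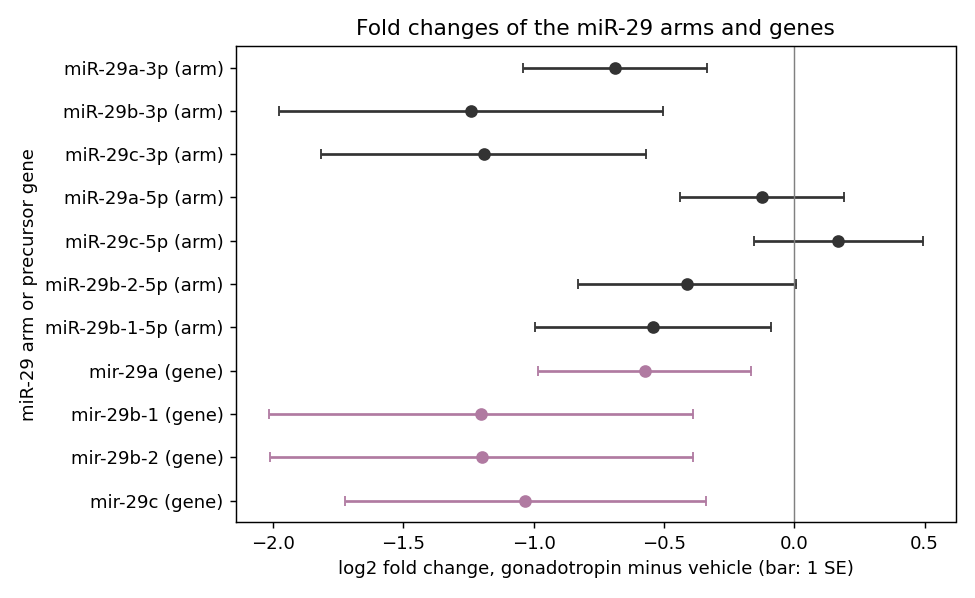
Log2 fold change of gonadotropin minus vehicle for the 7 arms (black, miRNA table) and the 4 precursor genes (purple, small RNA table), with bars of 1 SE. The 3p arms and all 4 genes lie below 0, from -0.57 for the gene mir-29a to -1.24 for miR-29b-3p, and the 5p arms of miR-29a and miR-29c lie near 0.

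Vehicle 7 carried most of the difference in the 3p arms. Left out, it took miR-29a-3p to a log2 fold change of -0.19 (unadjusted p = 0.493, edgeR quasi-likelihood test), miR-29b-3p to 0.19 (0.699) and miR-29c-3p to -0.16 (0.728). Without vehicle 9, the vehicle library with the lowest miR-29b-3p and miR-29c-3p, the values were -0.76, -1.62 and -1.55. There miR-29b-3p had an unadjusted p of 0.00514 and miR-29c-3p of 0.00216, and neither passed, with adjusted p of 0.164 and 0.107 in the same edgeR fit. In that fit 6.71% of all miRNAs had a value under 0 with an unadjusted p under 0.05, against 2.31% with all libraries. miR-29b-1-5p also turned on vehicle 9, at -0.029 without it, and miR-29b-2-5p was at -0.19 without vehicle 7 and -0.20 without gonadotropin 8 (-0.71 without gonadotropin 10).

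**Figure D3:**
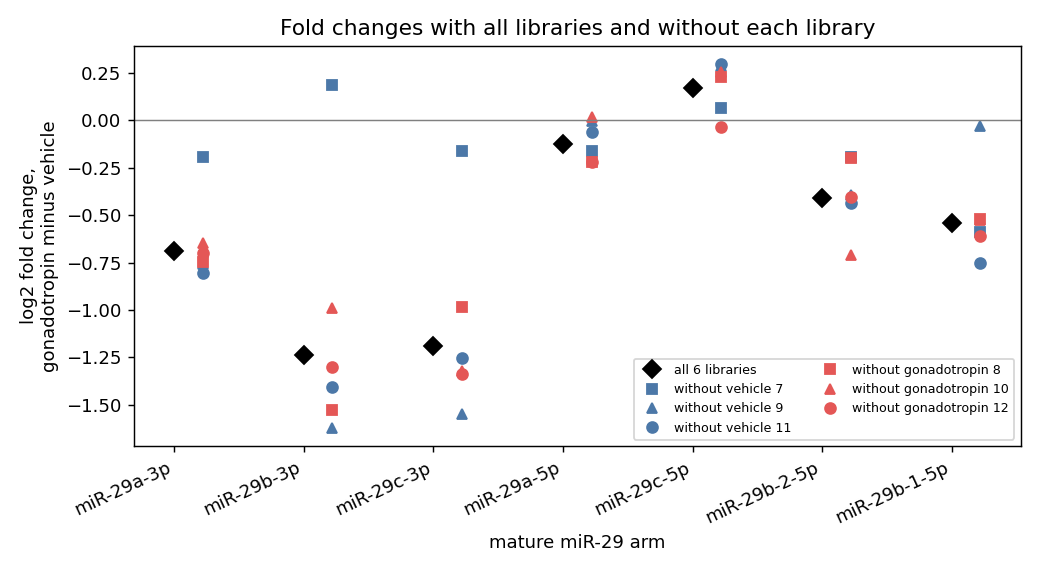
Log2 fold change of each arm with all 6 libraries (black diamonds) and with each library left out in turn (blue, a vehicle library removed; red, a gonadotropin library removed). Removing vehicle 7 moves miR-29a-3p, miR-29b-3p and miR-29c-3p to between -0.19 and 0.19, while miR-29a-5p and miR-29c-5p stay between -0.22 and 0.30 whichever library is removed.

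In vehicle 7 the 3p arms were 2.38 (miR-29a), 4.86 (miR-29b) and 4.10 (miR-29c) times the median of the other 5 libraries, and the 5p arms were 0.93 (miR-29a), 0.78 (miR-29c), 1.40 (miR-29b-1) and 1.53 (miR-29b-2) times that median. Of all tested miRNAs, 92.1%, 98.4% and 97.5% had a smaller ratio in vehicle 7 than miR-29a-3p, miR-29b-3p and miR-29c-3p. Over all 6 libraries, the SD of log2 CPM was 1.24 for miR-29b-3p and 1.08 for miR-29c-3p, beside 0.53 for miR-29a-3p and a median of 0.45 over all tested miRNAs. Without vehicle 7 it was 0.71, 0.63 and 0.16, beside a median of 0.39. Vehicle 7 came from the oldest animal, at 24 months, and gonadotropin 8, with miR-29b-3p at 4282 CPM and miR-29c-3p at 1980 CPM, from the next oldest, at 22 months. The part of age in the level of vehicle 7 was not tested.

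Markers of other cells were summed on the same TMM scale (a sum chosen after seeing the data), and only some of them set vehicle 7 apart. The 9 blood arms summed to 5140 CPM in vehicle 7, the lowest library, against 6702 and 11066 CPM in vehicle 9 and 11 and 7911 to 9155 CPM in the gonadotropin libraries. The 9 epithelial arms summed to 239.8 CPM in vehicle 7, the highest library, and to 95.5 to 174 CPM elsewhere. The 7 neural arms summed to 1194 CPM in vehicle 7 and 1325 to 2020 CPM elsewhere, but the list was split. Its miR-128b-3p was lowest in vehicle 7, at 495 CPM. By contrast, miR-9-5p and miR-9-3p were highest in vehicle 7, at 77.3 CPM (21.8 to 53.8 elsewhere) and 30.3 CPM (12.1 to 27.7 elsewhere). On library totals miR-9-3p was higher in vehicle 11 than in vehicle 7, so its order depends on the scaling. The endothelial miR-126 did not stand apart, at 5632 CPM in vehicle 7, 5534 CPM in vehicle 11 and up to 11264 CPM in gonadotropin 8. Nor did the 9 muscle arms, in which miR-143 and miR-145 of smooth muscle are counted, at 23509.8 CPM in vehicle 7, 21488 CPM in gonadotropin 12 and 50445 CPM in vehicle 9, where miR-29b-3p and miR-29c-3p were lowest. On library totals vehicle 7 was the lowest library for miR-126 (4729 CPM) and muscle (19742 CPM), so their order depends on the scaling. The epithelial sums of vehicle 7 and gonadotropin 8 were close on library totals, at 201 and 196 CPM, so that gap depends on it too. The name fixed for liver, miR-122, was not analysed here. The part of these cells in the miR-29 levels was not tested.

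Ratios between arms of the same library do not depend on how libraries are scaled. For miR-29c the 5p arm was 0.551% of both arms in vehicle 7 (95% Wilson interval 0.451 to 0.672%), 5.38% in vehicle 9 (4.55 to 6.35%) and 1.94% in vehicle 11 (1.64 to 2.31%). It was 4.39%, 2.48% and 3.48% in gonadotropin 8, 10 and 12. The strands of this hairpin were thus found in proportions nearly 10-fold apart between vehicle libraries, far beyond counting error, and the gonadotropin libraries lay inside that range. For miR-29a the 5p share was lowest in vehicle 7 too, at 0.617%, and ranged from 1.26 to 1.66% over the other 5 libraries.

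The ratio of miR-29b-3p to miR-29a-3p was 1.02 in vehicle 7, 0.183 in vehicle 9 and 0.576 in vehicle 11, and 0.607, 0.305 and 0.512 in gonadotropin 8, 10 and 12. The ratio of miR-29a-3p to miR-29c-3p was 1.22, 4.70 and 1.46 in vehicle 7, 9 and 11 and 3.56, 1.78 and 1.91 in gonadotropin 8, 10 and 12. The library in which miR-29a-3p stood highest over miR-29c-3p, vehicle 9, was also the one in which miR-29b-3p stood lowest against miR-29a-3p. Both ratios hold miR-29a-3p, so they are not independent. The ratio of miR-29b-1-5p to miR-29b-2-5p ran from 0.315 to 0.753 in vehicle and from 0.296 to 0.610 in gonadotropin libraries. These arms come from the chromosome 3 and chromosome 1 precursors of miR-29b, whose own levels were not measured.

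None of the 5 ratios differed between the groups beyond the spread of the libraries. The difference in log2 ratio, gonadotropin minus vehicle, was -0.92 for the miR-29c arms (5.76 ± 1.68 in vehicle, 4.84 ± 0.43 in gonadotropin; SD, n = 3 each, p = 0.5) and -0.44 for the miR-29a arms (p = 0.5), by a two-sided exact permutation test. It was 0.18 for miR-29a-3p to miR-29c-3p (p = 0.8), -0.06 for miR-29b-3p to miR-29a-3p (p = 0.9) and 0.03 for the miR-29b 5p arms (p = 1), by the same exact test. Adjusted over the 5 ratios each p was 1, and 3 libraries against 3 cannot give a p below 0.1. Without vehicle 7 the miR-29c difference was -0.05, and without vehicle 9 it was -1.73.

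**Figure D4:**
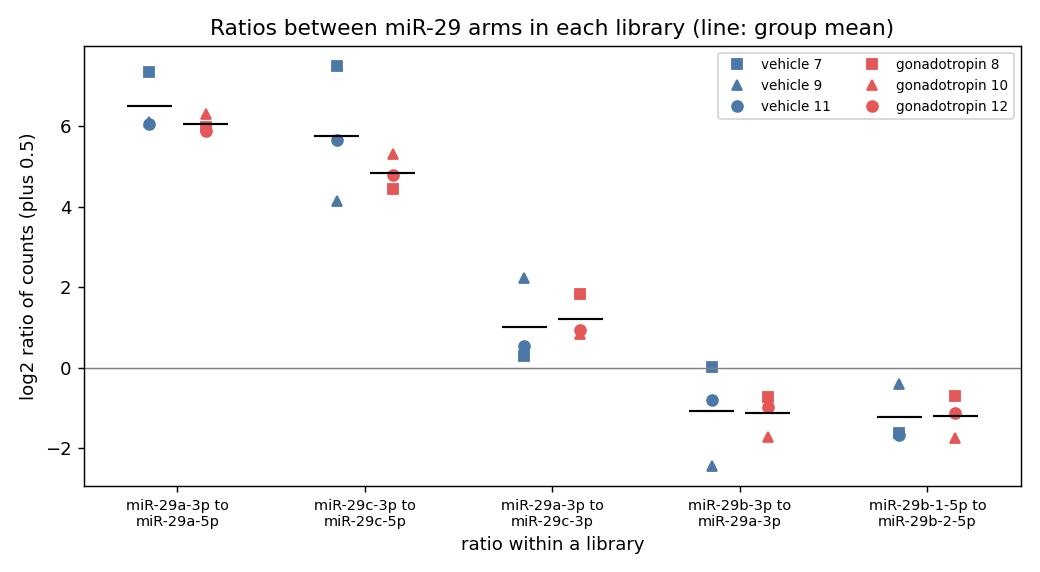
Log2 ratio of counts (plus 0.5) between miR-29 arms within each library, for the 5 ratios tested (blue, vehicle; red, gonadotropin; line, group mean). The groups overlap in each ratio, and the widest spread is that of miR-29c-3p to miR-29c-5p, from 4.13 in vehicle 9 to 7.49 in vehicle 7.

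The precursor genes of the small RNA table gave a second count of the same libraries, not an independent measurement. mir-29a was at 9262, 3765 and 3775 CPM in vehicle 7, 9 and 11 and at 3586 to 4074 CPM with gonadotropin. Its log2 fold change was -0.57 (SE 0.41). mir-29c was at 7854, 917 and 2753 CPM in vehicle 7, 9 and 11 and at 1140 to 2324 CPM with gonadotropin. The log2 fold change of this gene was -1.03 (SE 0.69). Vehicle 7 was again the highest library of each gene, and the groups overlapped in all 4, while they did not overlap in 8.23% of all tested genes. The values of mir-29b-1 and mir-29b-2 were -1.20 each (SE 0.81). None of the 4 genes was called (adjusted p = 0.998 for each, edgeR quasi-likelihood test) and 0 had an unadjusted p under 0.05, beside 0.139% of all 717 tested genes called and 4.46% with an unadjusted p under 0.05. DESeq2, limma voom and the edgeR exact test called 0 of them as well, with 0 at an unadjusted p under 0.05 in each. Among all 717 tested genes, 38, 32 and 34 had such a p in these fits. All 4 values were under 0, beside 51.9% of all genes (41.1% with library totals, which raised the median of all genes by 0.11). Without vehicle 7 all 4 turned, to 0.016 for mir-29a, 0.32 for mir-29b-1 and mir-29b-2 and 0.041 for mir-29c. Without vehicle 9 mir-29b-1, mir-29b-2 and mir-29c, at -1.82, -1.81 and -1.60, had an unadjusted p under 0.05, beside 4.11% of all genes with such a p and a value under 0.

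The miR-29b genes shared nearly all of their reads. Counts of mir-29b-1 were 21518, 2011 and 5366 in vehicle 7, 9 and 11, and those of mir-29b-2 were 21556, 2020 and 5394. The genes thus differed by 38, 9 and 28 reads in the vehicle libraries, and by 10, 42 and 22 reads in gonadotropin 8, 10 and 12. In the miRNA table miR-29b-2-5p exceeded miR-29b-1-5p by 36, 10 and 25 reads in the same vehicle libraries and by 8, 44 and 21 reads in the gonadotropin libraries. In every library these differences agree within 3 reads, so the small excess of mir-29b-2 was the size of the excess of its own 5p arm, and the level of either gene is that of the shared 3p arm. The fold changes of the pair therefore count as 1 measurement.

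The tables otherwise matched closely. The count of mir-29a was within 0.46% of the sum of its arms in every library, and that of each miR-29b gene within 0.49%. mir-29c held 3.41 to 10.5% more reads than the sum of its arms, or 255 to 595 reads per library. The excess was 595 reads in vehicle 7, 255 in vehicle 9 and 268 in gonadotropin 8, the libraries with the highest and lowest miR-29c-3p counts. As a percentage of the arms it ran the other way, at 3.41% in vehicle 7, 10.5% in vehicle 9 and 10.4% in gonadotropin 8. Which part of the hairpin these reads cover was not analysed here.

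Some miRNAs outside the family followed its 3p arms through the 6 libraries. By Pearson correlation of log2 CPM over the 6 libraries, among 426 other tested miRNAs, the 5 most like miR-29c-3p were miR-19b (r = 0.9996), miR-340-5p (0.99), miR-708-5p (0.99), miR-190a-3p (0.98) and miR-106b-5p (0.98). miR-19b, also on the extracellular matrix list below, was at 48050 CPM in vehicle 7, 18153 in vehicle 9 and 28990 in vehicle 11. In gonadotropin 8, 10 and 12 it was at 18941, 24530 and 25051 CPM. Its spread was narrower than that of miR-29c-3p, but the libraries fell in the same order. The 5 most like miR-29a-3p were let-7g-5p (r = 0.97), miR-374a-5p (0.96), miR-95-3p (0.96), miR-204-5p (0.95) and miR-183-5p (0.94), all highest in vehicle 7. These correlations describe 6 libraries of which vehicle 7 is an extreme, and all points share their library with the reference. Each set of 5 was picked by r over these same libraries, so its shared course follows from the choice. Over the 5 libraries without vehicle 7, r was 0.9994 for miR-19b and 0.92 to 0.96 for the other 4 with miR-29c-3p, and 0.48 to 0.92 for the 5 with miR-29a-3p, where miR-95-3p had the highest value. Between members, r was 0.84 for miR-29b-3p and miR-29c-3p, 0.82 for miR-29a-3p and miR-29b-3p and 0.75 for miR-29a-3p and miR-29c-3p. Without vehicle 7, r was 0.41, -0.11 and -0.50. For the arms of miR-29c it was -0.41 (0.23 without vehicle 7) and for those of miR-29a 0.20 (0.85 without vehicle 7). The likeness of miR-29a-3p to the other 3p arms thus rests on vehicle 7, and that of miR-29b-3p to miR-29c-3p rests on it in part.

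**Figure D5:**
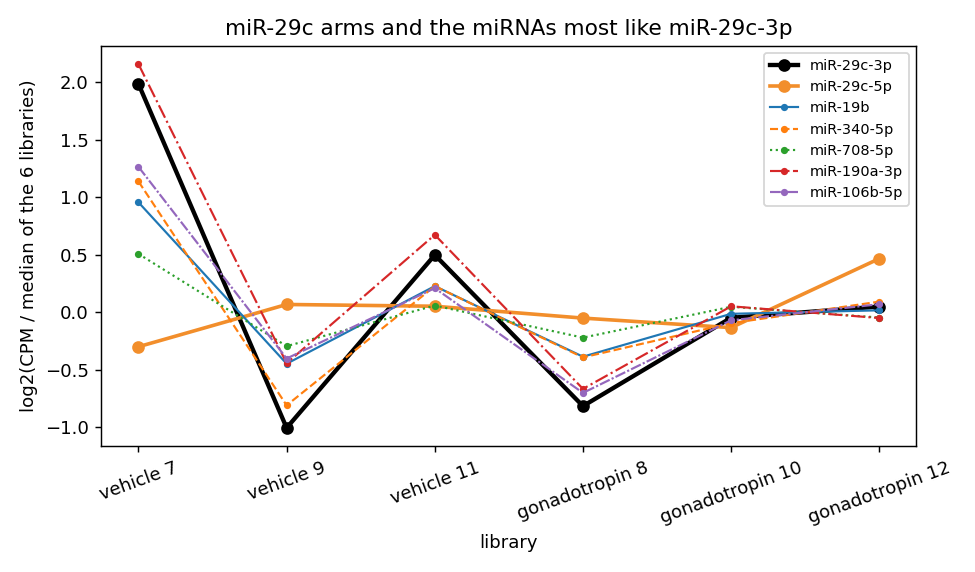
Log2 of CPM over the median of the 6 libraries for miR-29c-3p (thick black), miR-29c-5p (orange) and the 5 miRNAs most like miR-29c-3p, by library. miR-29c-3p and its 5 followers, picked for their likeness over these libraries, peak in vehicle 7 and are low in vehicle 9 and gonadotropin 8. miR-29c-5p, between 76.5 and 130 CPM, does not share that course.

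Other miRNAs tied to extracellular matrix or DNA methylation gave no call either. The first list held miRNAs tied to TGF-beta signalling and the extracellular matrix, with 13 of 17 names matched and 21 of 28 arms tested. Of these 9 had values above and 12 below 0, 0 were called (edgeR quasi-likelihood test, 0 with an unadjusted p under 0.05, beside 0.231% and 6% of all miRNAs) and the median was -0.05. miR-21-5p, which is raised in fibrosis and is usually set against miR-29, was at 18656, 19124 and 17756 CPM in vehicle 7, 9 and 11 and at 35666, 23490 and 23953 CPM in gonadotropin 8, 10 and 12. Its log2 fold change was 0.58 with an SE of 0.29. The groups did not overlap in miR-21-5p, as in 11.3% of all tested miRNAs, and the adjusted p of the edgeR quasi-likelihood test was 0.702. The next smallest p in this list were those of miR-21-3p (0.98, SE 0.59) and miR-214-5p (0.44, SE 0.32).

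The second list held miRNAs reported to target DNA methyltransferases or TET enzymes, with 12 of 12 names matched and 18 of 24 arms tested. Both lists took every listed arm of a name, so an arm named here need not be the one reported. The second list shares 6 arms, of miR-101 and miR-26a, with the first. Of its tested arms 8 had values above and 10 below 0, with a median of -0.11 and 0 called (edgeR quasi-likelihood test, 2 of 18 with an unadjusted p under 0.05, beside 6% of all miRNAs). Those 2 were miR-302b (-1.08, SE 0.46), known from pluripotent stem cells, with vehicle libraries at 19.96 ± 9.51 CPM and gonadotropin libraries at 9.39 ± 1.69 CPM, and miR-370-5p (1.22, SE 0.55), at 5.38 ± 3.41 and 12.9 ± 6.30 CPM (SD, n = 3 each). miR-148a-5p (-0.96, SE 0.44) came next.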

How the data were processed

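The authors deposited 2 tables of raw counts, per mature miRNA (miRDeep2, rheMac2) and per small RNA gene (HTSeq, rheMac8), per the labels. Tools in the submitters' processing notes are HTSeq 0.6.1p1, Bowtie 1.1.2, cutadapt 1.9.1 and edgeR. The sequencer is Ion Torrent by the titles, but the protocol in the labels is for TruSeq and Illumina. Strand and multi-mapping settings are not given in the sources used here. Deposited edgeR exact tests of the authors, with log2 fold changes and p-values, were used only where named.

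Counts were filtered with filterByExpr (minimum count 10), which kept 433 of 701 miRNAs and 717 of 3083 genes, scaled by TMM and tested with the robust quasi-likelihood test of edgeR 4.0.16 (R 4.3.3) on the whole table. The SE is the absolute log2 fold change over the root of the F statistic. Biological variation, as edgeR's common coefficient, was 35.1% (miRNAs) and 46.2% (genes). Ratios used raw counts plus 0.5. Log2 CPM for correlations used a prior count of 2. The fit was tested on simulated counts with set fold changes and the same variation in every row. This checks the code and not the power in these libraries. Reads carry no molecular identifiers, so intervals cover counting error only.

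Named were all members, the 5 miRNAs most like miR-29a-3p and miR-29c-3p and, per list, the 3 smallest p. The members and lists were chosen with earlier results of these data known. miRNAs that share the seed were not analysed here. Alternatives covered scaling, filter, tool (DESeq2 1.42.0, limma 3.58.1), age and each library left out. TMM-scaled marker sums, the spread and correlations without vehicle 7 and the overlap on library totals were added after seeing the data.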

Additional observations from a re-analysis of the deposited data

How the results depend on the processing

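No miR-29 arm or gene was called under any of the 15 alternatives. The adjusted p of the arms ran from 0.107 (miR-29c-3p, without vehicle 9) to 0.997, and that of the genes from 0.575 to 1. miR-29a-3p had an unadjusted p of 0.0392 with upper-quartile scaling (edgeR quasi-likelihood test), where 34 of 433 miRNAs had one under 0.05. The genes mir-29b-1, mir-29b-2 and mir-29c had unadjusted p of 0.0246, 0.0248 and 0.0163 with no filter on low counts (same edgeR test). In that fit 78 of 3083 genes had one under 0.05, and the miR-29b genes, which share nearly all of their reads, count as 1 measurement.

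The miRNA table as a whole had 1 call. It had 2 with library totals, 3 with DESeq2, 3 with the edgeR exact test, 0 with limma voom (21 at an unadjusted p under 0.05), and, by the edgeR quasi-likelihood test, 0 with pairs by age as a block (16), 0 without robust estimation (29) and 0 with age as a covariate (21). With 1 library left out it had 0 to 4 calls, the most without vehicle 9, and 13 to 66 miRNAs at an unadjusted p under 0.05. The small RNA table had 1 call, and 3 with DESeq2, 3 with no filter, 3 with the edgeR exact test, 0 with limma voom (32), 0 with pairs by age as a block (19) and 0 to 1 with 1 library left out (20 to 52). The cause was not tested.

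miR-29a-3p was at -0.58 with the block of pairs by age, and at -0.52 when age was a covariate. The animals carry different numbers in the groups, so the block rests on age alone. With library totals the log2 fold change of miR-29a-5p was 0.12. With 1 library left out it ran from -0.22 to 0.018, and the others from -0.80 to -0.19 (miR-29a-3p), -1.62 to 0.19 (miR-29b-3p), -1.55 to -0.16 (miR-29c-3p), -0.033 to 0.30 (miR-29c-5p), -0.89 to 0.016 (mir-29a), -1.82 to 0.32 (mir-29b-1), -1.81 to 0.32 (mir-29b-2) and -1.60 to 0.041 (mir-29c). The differences in log2 ratio ran from -0.66 to -0.02 for the arms of miR-29a, -1.73 to -0.05 for those of miR-29c, -0.19 to 0.79 for miR-29a-3p to miR-29c-3p, -0.75 to 0.49 for miR-29b-3p to miR-29a-3p and -0.22 to 0.44 for the miR-29b 5p arms. Depth limits the miR-29b-1-5p values, at 11 to 30 reads per library.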
